A study of Mus musculus with 16 samples.

Results

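Phospholipases cut membrane phospholipids, and they are grouped by the bond that they cut. The set described here holds the genes named Pla1a, Plb1 or Plce1, or named with the stems Pla2g, Plcb, Plcd, Plcg, Plch and Plcl, or Pld followed by a digit, with at least 10 read pairs in at least 4 of 16 libraries. Of 45 such symbols among 47593 listed genes, 32 met the count limit, namely 12 phospholipase A genes, 14 phospholipase C genes and 6 phospholipase D genes. All 32 were among the 16553 genes tested. The question was whether Pla2g3 and Pla1a, which were named by the study on these same samples, are typical of the family. Their values are therefore no independent evidence of a rise.

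Cortical RNA of 5xFAD mice was sequenced at 5 months of age in 16 libraries, which the labels give as 4 replicates in each of 4 groups, females on the control diet (FC) or the rapamycin diet (FR) and males on the control diet (MC) or the rapamycin diet (MR). The 5xFAD mouse carries human transgenes with familial Alzheimer's disease mutations, among them APP with the Swedish, Florida and London mutations, driven by the Thy-1 promoter in neurons, and develops amyloid plaques early. The mice were heterozygous on a C57BL/6 and SJL hybrid background, every group carried the transgenes, and no mouse without them was compared. The study's text also speaks of samples pooled for sequencing, so whether each library holds RNA of a single mouse was not settled. Rapamycin inhibits the kinase mTORC1 and was given in the diet from 2 to 5 months, while control mice received the diet with the vehicle.

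The counted read pairs ranged from 16393501 to 20593089 per library (median 17656718), and the 32 genes took between 0.154% and 0.179% of them. The labels place 5 libraries (FC4, FR4, FR5, MC4 and MR4) in batch 2 and the other 11 in batch 1, so batch was a term in each fit. The library labelled MR4 had 9935 read pairs of Xist and 0 of the Y-linked genes, against its label as male, so results are also given without it. Of 14 lists of cell type markers, no gene was at 0 in every library. Among those that passed for rapamycin against vehicle were Ly6c1 of 8 endothelium markers (higher) and Tmem72 and Aqp1 of 8 choroid plexus markers (lower). Of the 8 endothelium markers, 5 were higher and 3 lower, and all 8 choroid plexus markers were lower. The 7 glutamatergic neuron markers summed to between 1990 and 2411 CPM (read pair counts scaled to library size with TMM factors) in control libraries and between 1541 and 2863 in rapamycin libraries. The choroid plexus markers summed to 1971 CPM in the control library MC4 and to at most 327 CPM in every other library. In bulk tissue, fewer cells of a type and less RNA per cell cannot be told apart.

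Phospholipase A enzymes release a fatty acid and a lysophospholipid, and the fatty acid is often arachidonic acid, the precursor of prostaglandins and leukotrienes. Phospholipase C enzymes split phosphatidylinositol bisphosphate into diacylglycerol and inositol trisphosphate, which act through protein kinase C and calcium release. In neurons the beta isoforms are activated by Gq-coupled receptors, the gamma isoforms by receptor tyrosine kinases, and phospholipase D makes phosphatidic acid, a lipid that also acts on mTOR signaling.

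The promoters of 28 of the 32 genes were matched in RefSeq (build GRCm38.p6), and those of Pla1a, Pla2g3, Pla2g4b and Plcl2 were not used here. The 250 bases before a RefSeq start of transcription are shown for 4 genes that passed the test for rapamycin against vehicle in both sexes together. The pair that rose was Pla2g7 (chr17:43568201-43568450, plus strand) and Pla2g12a (chr3:129880934-129881183, plus strand). The pair that fell was Plcb1 (chr2:134785914-134786163, plus strand) and Plcb2 (chr2:118728439-118728688, minus strand). In the gene models used for counting, Pla2g7 began at 43568098 and Pla2g12a at 129878606, so both windows lay inside the counted genes. Plcb1 began at 134786067, within its window, and only the Plcb2 window lay wholly outside its gene. Capitals mark matches on either strand to the GC box GGGCGG, the CCAAT box CCAAT, the E-box CACGTG or the TATA box TATAAA.
Pla2g7: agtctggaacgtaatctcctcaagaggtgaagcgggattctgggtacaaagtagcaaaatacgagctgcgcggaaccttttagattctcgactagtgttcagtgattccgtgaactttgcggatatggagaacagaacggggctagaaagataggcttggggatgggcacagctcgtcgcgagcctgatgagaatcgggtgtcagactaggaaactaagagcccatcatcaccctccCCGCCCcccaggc
Pla2g12a: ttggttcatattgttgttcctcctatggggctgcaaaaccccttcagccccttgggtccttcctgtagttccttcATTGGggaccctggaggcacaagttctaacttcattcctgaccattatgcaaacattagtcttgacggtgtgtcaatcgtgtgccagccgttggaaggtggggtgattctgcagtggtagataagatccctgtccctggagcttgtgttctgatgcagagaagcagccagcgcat
Plcb1: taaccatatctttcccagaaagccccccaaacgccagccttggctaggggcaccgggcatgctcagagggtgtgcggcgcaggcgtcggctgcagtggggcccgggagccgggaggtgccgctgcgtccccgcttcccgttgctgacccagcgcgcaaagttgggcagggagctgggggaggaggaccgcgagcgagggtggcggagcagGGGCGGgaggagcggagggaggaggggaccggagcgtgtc
Plcb2: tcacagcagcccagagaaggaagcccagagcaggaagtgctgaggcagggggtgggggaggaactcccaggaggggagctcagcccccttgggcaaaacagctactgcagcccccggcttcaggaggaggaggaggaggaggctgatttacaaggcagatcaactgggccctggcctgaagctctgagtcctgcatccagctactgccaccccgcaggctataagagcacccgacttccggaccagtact
The Pla2g7 and Plcb1 windows held 1 GC box each, the Pla2g12a window held 1 CCAAT box, and the Plcb2 window held no match to these letters. GC boxes were found before a RefSeq start of 19 of the 28 genes and before 32.7% of 32851 RefSeq starts. CCAAT boxes were found for 13 genes and 33.8% of starts, E-boxes for 2 and 6.02%, and TATA boxes for 1 and 12.4%. A gene with several starts counts once if any window holds the motif, so these shares are not on the same base. The GC content was 71.2% in the Plcb1 window and 62.0% in the Plcb2 window, and 52.8% and 50.8% in those of Pla2g7 and Pla2g12a, beside a median of 52.4% over all starts.

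Levels were compared per kilobase of exon, as CPM per kilobase in the 8 control libraries. Pld3, an endolysosomal member of the phospholipase D family that acts on nucleic acids, was the highest at 236 ± 20.4 CPM per kilobase (SD, n = 8) and made up 57.0% of the summed level of the 32 genes. It was followed by Pla2g7, the secreted platelet-activating factor acetylhydrolase, at 30.9 ± 4.93, Plcb1 at 23.8 ± 3.19, Plcl2, a catalytically inactive phospholipase C relative, at 23.4 ± 3.28, and Pla2g15, the lysosomal phospholipase, at 14.4 ± 1.90 CPM per kilobase. Plcb1 and Plcl2 did not differ beyond their spread. By class, phospholipase D genes held 59.5% of the summed level, phospholipase C genes 24.9% and phospholipase A genes 15.6%.

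Pla2g3 and Pla1a lay low in this order. Pla2g3 ranked 26th with 0.629 ± 0.399 CPM per kilobase and Pla1a ranked 27th with 0.628 ± 0.196 (SD, n = 8), and they did not differ beyond their spread. In the middle of the order lay Plcg1 (11.1), Plch2 (8.94), Plcb4 (8.30), Pld4 (6.44), Pla2g16 (6.39), Plcd3 (5.89), Plcl1 (5.54), Plcd1 (5.19), Plcb3 (4.52), Pla2g6 (4.36), Pla2g12a (4.17), Pld2 (2.71), Plcd4 (1.77), Plcg2 (1.55), Plch1 (1.39), Pla2g4e (1.25) and Pla2g5 (1.07). Just above Pla2g3 were Plcb2 (0.794), Plce1 (0.737) and Pld1 (0.671 CPM per kilobase). Below Pla1a were Pla2g4a (0.511), Pld5 (0.398), Pld6 (0.352), Pla2g4b (0.182) and Plb1 (0.150 CPM per kilobase). Both genes ranked among the low members of the family. For 23 of the 31 neighbouring pairs in the order, the gap was within their SD. The order of Pla2g3 and Pla1a was the same when levels were scaled to the same total in every library.

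**Figure D1:**
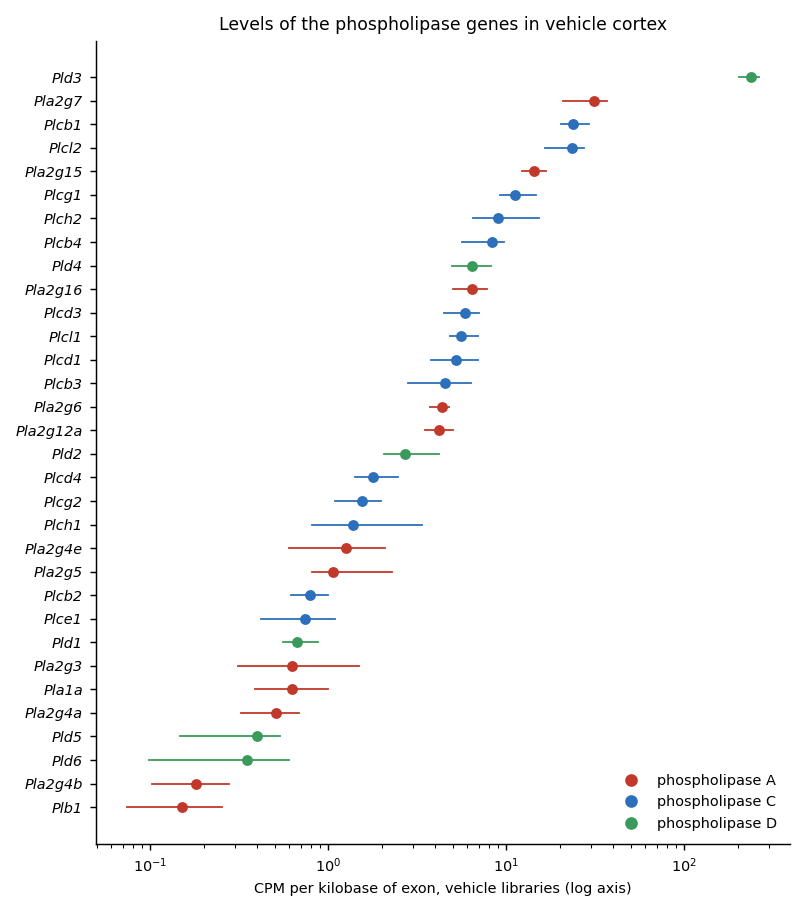
Levels of the 32 phospholipase genes in the 8 control libraries, in CPM per kilobase of exon on a log axis, with points for means and lines from the lowest to the highest library. Pld3 stands above all others at 236, while Pla2g3 and Pla1a rank 26th and 27th.

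The 13 symbols under the count limit were all phospholipase A2 genes. Pla2g2d reached 10 read pairs in 3 libraries (1 to 18 read pairs), Pla2g4c in 2 (highest 17) and Pla2g2f in 1 (highest 12). Pla2g2c and Pla2g4d reached at most 6 read pairs, Pla2g4f and Pla2g10 at most 3, and Pla2g4c-ps, Pla2g1b and Pla2g2e at most 1, while Pla2g10os, Pla2g12b and Pla2g2a were at 0 in every library. Just inside the limit were Pld6, with 3 to 19 read pairs and 11 libraries at 10 or more, and Pla2g4b, with 8 to 35 read pairs and 14 libraries.

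Pla2g3 encodes a secreted phospholipase A2 (GRCm38 chr11:3488284-3499350, plus strand), and it had 30 to 126 read pairs per library. Its level was 1.47, 2.26, 2.07 and 7.03 CPM in FC and 2.91, 4.68, 6.97 and 4.94 CPM in FR. In males it was 2.44, 1.70, 2.25 and 4.42 CPM in MC and 3.49, 3.56, 4.10 and 4.58 CPM in MR. The highest library of each control group was its batch 2 library. In batch 1 the diets did not overlap, as for 4.59% of all tested genes, with 1.47 to 2.44 CPM in control and 2.91 to 4.68 CPM in rapamycin libraries. In batch 2 they overlapped, at 7.03 and 4.42 CPM in control and 6.97, 4.94 and 4.58 CPM in rapamycin libraries.

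Across both sexes the log2 fold change of Pla2g3 was 0.57 (SE 0.192), and it did not pass the test (edgeR quasi-likelihood, Benjamini-Hochberg adjusted p = 0.0562). Its batch difference was larger, at 0.97 (SE 0.202, batch 2 minus batch 1, adjusted p = 0.00158). With batch 1 libraries alone the diet difference was 0.88 (adjusted p = 0.0345), and without FC4, FR5 or MR4 it was 0.75, 0.64 and 0.65 (adjusted p of 0.0243, 0.0485 and 0.0429). Exons of Pla2g3 shared 8.54% of their bases with Inpp5j, and such read pairs were not counted for either gene.

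Pla1a encodes a secreted phosphatidylserine-specific phospholipase A1 (GRCm38 chr16:38396119-38433145, minus strand), with 14 to 55 read pairs per library. Its level was 1.03, 0.961, 0.762 and 1.20 CPM in FC and 2.45, 2.99, 1.66 and 1.65 CPM in FR. In males it was 1.96, 1.60, 1.33 and 1.06 CPM in MC and 1.72, 3.02, 1.69 and 0.978 CPM in MR. The lowest MR value was that of the library labelled MR4.

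Pla1a rose across both sexes, by a log2 fold change of 0.74 (SE 0.237, edgeR adjusted p = 0.0462), and was the only one of the 32 genes to meet the limits set here for a differentially expressed gene (DEG), a 1.5-fold difference beside an adjusted p under 0.05, where 2.26% of all tested genes were DEGs. That call was lost on leaving out any of 11 libraries (all 4 of FC, FR1, FR2, FR5, MC2, MC3, MC4 or MR2), with log2 fold changes of 0.64 to 0.85 and adjusted p values of up to 0.114 over the 16 such fits. Without the library labelled MR4 it held, at 0.85 (adjusted p = 0.0347). With batch 1 alone the difference was 0.91 (adjusted p = 0.0604), and with the replicate number as a block it was 0.67 (adjusted p = 0.0961).

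**Figure D2:**
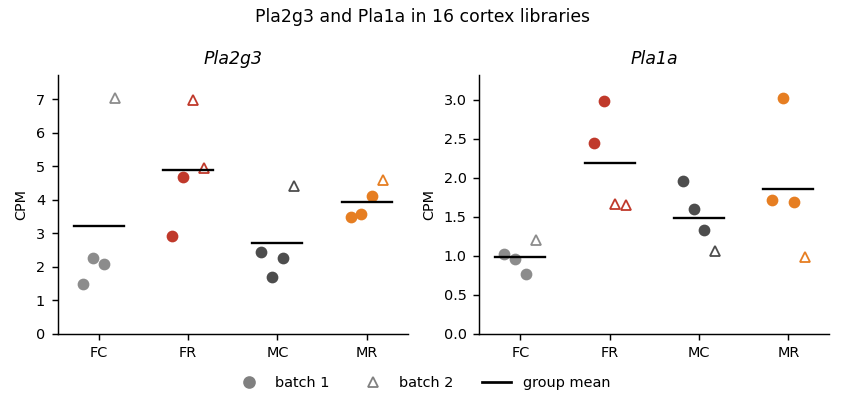
CPM of Pla2g3 and Pla1a in each of the 16 libraries, by group, with filled circles for batch 1, open triangles for batch 2 and lines for group means. The batch 2 control libraries are the highest of their groups for Pla2g3 (7.03 in FC and 4.42 in MC). For Pla1a, FC runs from 0.762 to 1.20 and FR from 1.65 to 2.99.

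Among the 32 genes, Pla1a and Pla2g3 had the largest and second largest positive log2 fold changes, in a family where 17 values were positive and 15 negative with a median of 0.030, beside 0.015 over all genes tested. Both were named by the study as raised on these same samples, so their rank is no independent evidence. In all, 6 genes passed the test (18.8%), 4 higher and 2 lower, where 13.3% of all tested genes passed (6.46% higher and 6.86% lower). All 4 that rose were phospholipase A genes and both that fell were phospholipase C beta genes. The median log2 fold change was 0.17 over the 12 phospholipase A genes and 0.041 over the 6 phospholipase D genes, which became -0.011 without MR1. Over the 14 phospholipase C genes it was -0.12, and 0.0091 with offsets for exon length. Without the library labelled MR4, 8 genes passed, adding Pla2g3 and Pld4, where 9.44% of all tested genes passed.

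The other 3 phospholipase A genes that rose were more abundant than Pla1a and Pla2g3. Pla2g7 was at 88.4, 99.4, 91.7 and 80.7 CPM in FC, 141, 130, 112 and 110 in FR, 99.4, 92.1, 107 and 60.2 in MC and 131, 97.9, 102 and 131 in MR. Its log2 fold change was 0.45 (SE 0.0995, adjusted p = 0.0145), and it passed without any 1 library, but not with batch 1 alone (0.33, adjusted p = 0.0634). The female groups did not overlap and the male groups did, but the interaction of sex and diet was 0.11 (edgeR adjusted p = 0.999). How many of all tested genes separate so within 1 sex was not counted. Pla2g7 shared 11% of its exon bases with 1700071M16Rik.

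Pla2g12a, a secreted phospholipase A2 of low catalytic activity, was at 18.4, 17.1, 14.6 and 13.8 CPM in FC, 23.4, 20.1, 14.4 and 17.8 in FR, 13.7, 15.1, 17.4 and 12.9 in MC and 19.7, 20.7, 19.5 and 18.2 in MR. In batch 1 the diets did not overlap, as for 4.59% of all tested genes. The log2 fold change was 0.36 (SE 0.0834, adjusted p = 0.0160), and 0.38 with batch 1 alone (adjusted p = 0.0412).

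Pla2g16, an adipose-enriched phospholipase and acyltransferase, was at 42.3, 44.3, 39.9 and 35.2 CPM in FC, 49.5, 48.7, 49.0 and 47.4 in FR, 45.2, 37.9, 49.7 and 32.3 in MC and 56.7, 45.9, 44.7 and 56.8 in MR. FR lay above FC in every library and the male groups overlapped, but the interaction of sex and diet was -0.018 (edgeR adjusted p = 0.999). The share of all tested genes that separate so within females was not counted. Over both sexes the log2 fold change was 0.31 (SE 0.0873, adjusted p = 0.0304), but 0.18 with batch 1 alone (adjusted p = 0.209) and 0.31 with the replicate block (adjusted p = 0.0571). The call was lost without FC3, FC4, FR1, FR2, MC2 or MC4 (0.25 to 0.35 over all 16 fits, adjusted p up to 0.0843).

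The remaining 7 phospholipase A genes other than Pla2g3 did not pass. Plb1, a phospholipase B acting on both acyl chains, had a log2 fold change of 0.42 (adjusted p = 0.220), and Pla2g4b, a cytosolic phospholipase A2, one of -0.58 (SE 0.247, adjusted p = 0.119). Pla2g4b shared 66.5% of its exon bases with Gm28042, so its counts are uncertain. The calcium-regulated cytosolic Pla2g4a, which releases arachidonic acid, was at 0.026 and Pla2g4e at -0.024, the calcium-independent Pla2g6 at -0.015, Pla2g15 at -0.072 and the secreted Pla2g5 at -0.20, with adjusted p values from 0.622 to 0.964.

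**Figure D3:**
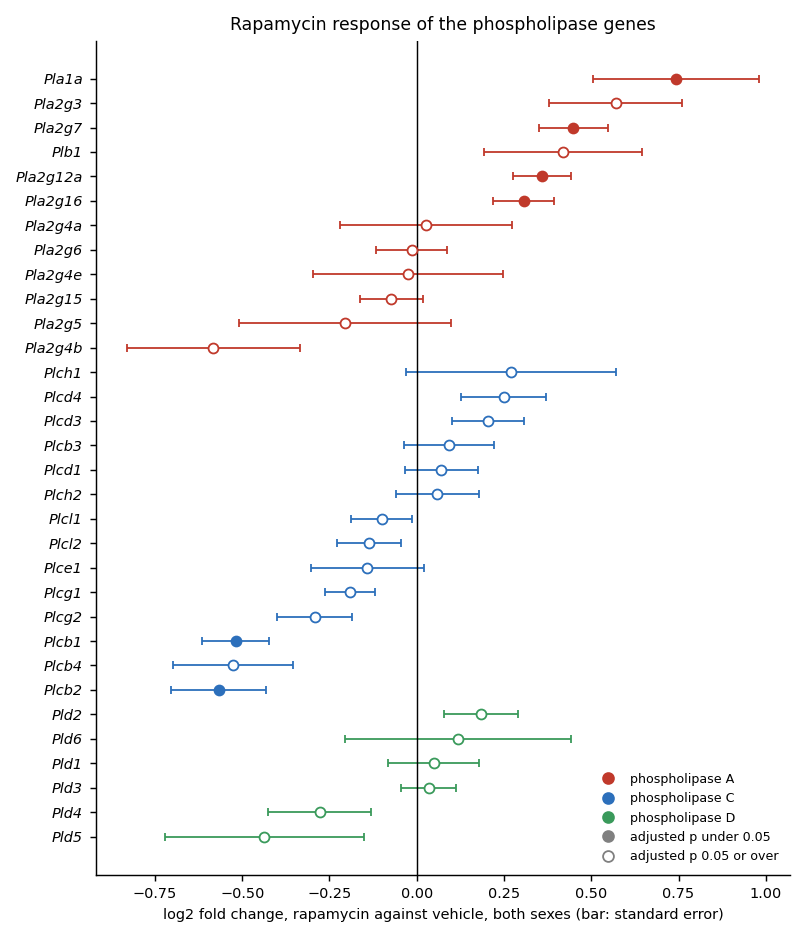
Log2 fold change of the 32 genes for rapamycin against vehicle in both sexes together, by class, with bars for the standard error and filled points for an adjusted p under 0.05. The 4 filled points above 0 are phospholipase A genes and the 2 below 0 are Plcb1 and Plcb2.

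The 4 phospholipase C beta genes had a median log2 fold change of -0.52. Plcb1, the isoform with the highest level per kilobase, was at 255, 257, 323 and 254 CPM in FC and 138, 176, 200 and 186 CPM in FR. In males it was at 234, 252, 225 and 315 CPM in MC and 177, 212, 217 and 185 CPM in MR. Every rapamycin library lay below every control library, a lack of overlap seen for 1 of the 32 genes and for 0.489% of all tested genes. Plcb1 fell by 0.52 on the log2 scale (SE 0.0971, adjusted p = 0.0107), and passed in all 16 fits that left out 1 library and in batch 1 alone (-0.49, adjusted p = 0.0429). With offsets for exon length it was -0.36 (adjusted p = 0.0299).

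Plcb2, an isoform known from blood cells, was at 5.33, 6.11, 4.30 and 6.61 CPM in FC, 3.57, 3.92, 4.76 and 4.83 in FR, 5.17, 5.05, 4.09 and 5.26 in MC and 3.09, 2.08, 2.78 and 4.99 in MR. Only the rapamycin libraries of batch 2, namely the library labelled MR4 and the batch 2 FR libraries, lay within the control range. Within batch 2 the diets did not overlap, with 6.61 and 5.26 CPM in control and 4.76, 4.83 and 4.99 CPM in rapamycin libraries. The share of all tested genes that separate so in batch 2 was not counted. Plcb2 fell by 0.57 on the log2 scale (SE 0.136, edgeR adjusted p = 0.0179), and by 0.62 without the library labelled MR4 (adjusted p = 0.0222). In batch 1 alone the diets did not overlap for 4 of the 32 genes (Pla2g12a, Pla2g3, Plcb1 and Plcb2), where 4.59% of all tested genes did not.

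Plcb4, an isoform known from the retina and thalamus, was at 56.2, 87.4, 83.5 and 72.9 CPM in FC, 33.9, 72.7, 66.4 and 52.3 in FR, 74.7, 84.7, 50.4 and 85.8 in MC and 39.5, 68.1, 48.8 and 33.6 in MR. The diets overlapped, and its log2 fold change of -0.53 (SE 0.172) did not pass (adjusted p = 0.0503), while with the replicate block it was -0.56 (adjusted p = 0.0331). The thalamus markers summed to 103 to 209 CPM in control and 96.0 to 209 CPM in rapamycin libraries. Of these 7 markers, 2 were higher and 5 lower, and 0 passed. Their part in the Plcb4 value was not tested. Plcb3 was at 0.094 (adjusted p = 0.664).

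**Figure D4:**
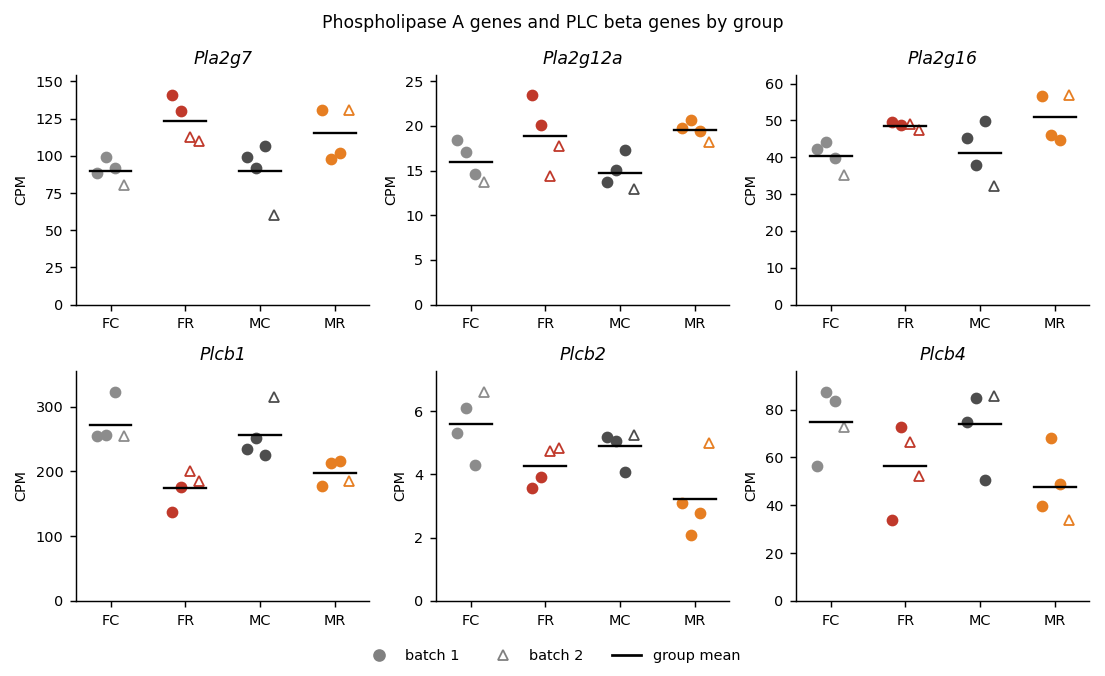
CPM in each library of the 3 other phospholipase A genes that rose and of the PLC beta genes Plcb1, Plcb2 and Plcb4, by group, with filled circles for batch 1, open triangles for batch 2 and lines for group means. For Plcb1 every rapamycin library lies below every control library, while Plcb4 overlaps between diets and did not pass the test.

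None of the other 10 phospholipase C genes passed. The receptor tyrosine kinase effector Plcg1 had a log2 fold change of -0.19 (SE 0.0726, adjusted p = 0.0843) and Plcg2, the microglial and immune isoform, one of -0.29 (SE 0.108, adjusted p = 0.0766). The microglia markers summed to 475 to 890 CPM in control and 359 to 679 CPM in rapamycin libraries. Of these 8 markers, 1 was higher and 7 were lower (median log2 fold change -0.13), and 0 passed. Their part in the Plcg2 value was not tested. The 3 delta isoforms, Plcd1, Plcd3 and Plcd4, were at 0.070, 0.20 and 0.25, Plce1, an effector of Ras, at -0.14, the eta isoforms Plch1 and Plch2 at 0.27 and 0.059, and the inactive relatives Plcl1 and Plcl2 at -0.10 and -0.14, with adjusted p values from 0.174 to 0.775. Plcd4 shared 29.8% of its exon bases with Zfp142.

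No phospholipase D gene passed, and the smallest adjusted p of the class was 0.214, for Pld4, a microglial nuclease, at -0.28 (SE 0.148). Without the library labelled MR4, which at 14.7 CPM was the highest of MR (6.09 to 10.1 in the others), Pld4 was at -0.40 (adjusted p = 0.0360). Pld5, an inactive relative, had the largest difference of the class at -0.44 (SE 0.284, adjusted p = 0.318). The classical enzymes Pld1 and Pld2 were at 0.048 and 0.18, Pld3 at 0.034 and the mitochondrial Pld6 at 0.12, with adjusted p values from 0.260 to 0.838.

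Within females alone 0 of the 32 genes passed by edgeR, where 0.0121% of all tested genes passed. Of the 32, 7 had an unadjusted p under 0.05 by edgeR, as had 3818 of the 16553 tested genes. DESeq2 called 2 in females (Pla2g7 higher and Plcb1 lower), where it called 9.08% of all tested genes. Within males 0 passed by edgeR, as did 0 of all tested genes, and 8 had an unadjusted p under 0.05, where 1990 of 16553 tested genes had. DESeq2 called 0 of the 32 in males, beside 27 of 16548 tested genes. The log2 fold change of Pla1a was 1.22 in females (SE 0.312, adjusted p = 0.0707) and 0.29 in males (SE 0.303, adjusted p = 0.712), and that of Pla2g3 was 0.51 (SE 0.277, adjusted p = 0.274) and 0.63 (SE 0.282, adjusted p = 0.39). Leaving out 1 library at a time, the female value of Pla2g3 lay between 0.29 (without FR2) and 0.96 (without FC4). Plcb1 was at -0.68 in females (SE 0.134, adjusted p = 0.0572) and -0.37 in males (SE 0.130, adjusted p = 0.363).

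No gene of the 32 passed the test of the difference between the sexes, with 2 at an unadjusted p under 0.05 where 360 of 16553 tested genes were, and no DESeq2 call either. They were Pla1a, with an interaction of 0.93 (SE 0.436, adjusted p = 0.999), and Pla2g5, with 1.26 (SE 0.551, adjusted p = 0.999). Pla2g5 was at 2.78, 2.49, 2.34 and 2.40 CPM in FC, 3.32, 5.38, 1.44 and 3.19 in FR, 2.44, 2.55, 3.06 and 6.60 in MC and 1.32, 2.73, 2.53 and 1.60 in MR. The value of 6.60 was that of MC4, which also had the highest sum of choroid plexus markers, 1971 CPM against at most 327 in the others, and whose part in it was not tested. Without the library labelled MR4, Pla1a was at 1.20 in females and 0.45 in males.

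**Figure D5:**
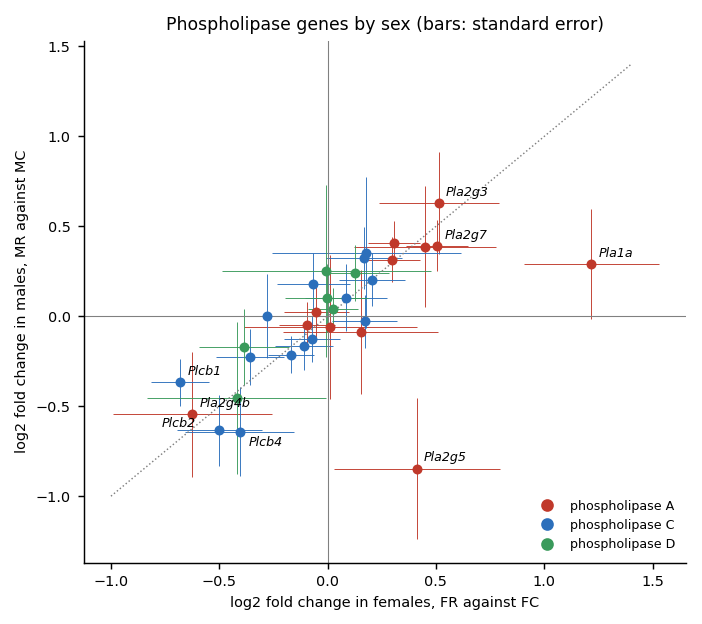
Log2 fold change of each of the 32 genes in females (FR against FC) and males (MR against MC), with bars for the standard error and a dotted line of equal values. Pla1a (1.22 and 0.29) and Pla2g5 (0.41 and -0.85) lie farthest from that line, and neither passed the interaction test.

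Between the sexes over both diets, 0 of the 32 genes passed by edgeR (smallest adjusted p = 0.800), where 0.0302% of all tested genes passed. Of the 32, 6 had an unadjusted p under 0.05 by edgeR, as had 992 of 16553 tested genes. DESeq2 called 0 of the 32, beside 11 of 16549 tested genes. Without the library labelled MR4, 0 of the 32 passed by edgeR, beside 7 of 16861 tested genes. Between batches 13 of the 32 passed, 11 higher and 2 lower in batch 2, where 35.5% of all tested genes passed (19.1% higher and 16.5% lower). Higher in batch 2 were Pla2g4b (1.00 on the log2 scale, SE 0.256), Pla2g3, Plch2 (0.73, SE 0.127), Plcb3 (0.57, SE 0.138), Plcg1 (0.55, SE 0.078), Plcb2 (0.44, SE 0.144), Plcd1 (0.44, SE 0.112), Pld2 (0.44, SE 0.114), Plcd4 (0.41, SE 0.131), Pld1 (0.37, SE 0.140) and Plcg2 (0.34, SE 0.115). Pla2g12a (-0.29, SE 0.0916) and Plcl2 (-0.36, SE 0.101) were lower. Adjusted p values by edgeR ran from 8.26e-05 for Plcg1 to 0.0467 for Pld1.

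The genes around these enzymes were described from 7 lists, to be read beside the 6.46% of all tested genes that passed higher and the 6.86% that passed lower. Over all genes, 5039 of 16553 had an unadjusted p under 0.05 in the same edgeR test. Of 30 other phospholipases and lysophospholipases tested, 2 rose and 2 fell (median 0.011), namely the lipase Pnpla2 (0.44) and the lysophospholipase Lypla2 (0.31), and Plcxd2 (-0.58) and Plcxd3 (-1.43), which share a phospholipase C domain. Of 19 genes that make arachidonic acid products, 0 passed by edgeR (4 at an unadjusted p under 0.05, median -0.048). Of 22 genes of lysophospholipid reacylation and receptors, 1 rose (Agpat4, 0.32) and 2 fell (the acyltransferases Lpgat1, -0.40, and Lclat1, -0.27), with a median of -0.060. Of 12 genes of phosphatidic acid removal and phospholipase D activation, 0 passed by edgeR (2 at an unadjusted p under 0.05, median 0.085).

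Of the 29 genes that act on or through diacylglycerol and inositol trisphosphate, 0 rose and 6 fell (median -0.20), among them the diacylglycerol kinases Dgkh (-1.40, SE 0.259, adjusted p = 0.0104) and Dgki (-0.80, SE 0.147, adjusted p = 0.0104) and the diacylglycerol-regulated exchange factor Rasgrp1 (-0.49, SE 0.0959, adjusted p = 0.0119). Of 14 genes for Gq proteins and Gq-coupled receptors, 0 rose and 4 fell (median -0.40), the muscarinic receptor Chrm3 (-0.41), the adrenergic receptor Adra1a (-0.91), the Gq subunit Gnaq (-0.41) and the serotonin receptor Htr2a (-1.0). Of 17 genes of phosphoinositide supply, 0 rose and 3 fell (median -0.086), Pi4ka (-0.39), Cds2 (-0.45) and Pip4k2b (-0.28). The median exon length was 6270 bases in the diacylglycerol and inositol trisphosphate list, beside 3766 for all tested genes. Lypla2 and Htr2a were added to the named genes after their values were seen.

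Exon length moved with diet across libraries. The slope of a gene's log2 CPM deviation on log2 exon length lay between 0.000395 and 0.0770 in control and between -0.127 and 0.0119 in rapamycin libraries of batch 1, and between 0.0944 and 0.10 and between -0.0333 and 0.0640 in batch 2. The median exon length was 4838 bases for phospholipase A genes, 6866 for phospholipase C genes, 4588 for phospholipase D genes and 3766 for all tested genes. With offsets that remove this trend, 5 of the 6 genes passed, all but Pla1a (0.66, adjusted p = 0.0897), where 6.11% of all tested genes passed. With the slope, or the share of mitochondrial counts (2.64% to 6.99%), as a covariate, 0 of the 32 genes and 0 of all tested genes passed. How much of the differences goes with these library properties cannot be told apart in 16 libraries.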

How the data were processed

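The deposited values are the authors' raw read pair counts of each gene in 16 cortex libraries, given also by group with 0 differing values. Per the methods and file headers, reads were trimmed by 10 bases (Trimmomatic 0.39), aligned to GRCm38 (HISAT2 2.2.1) and counted by gene name on exons without strand (featureCounts 2.0.3), leaving out pairs that matched several places or genes. Depth was 16393501 to 20593089 counts, so genes with few counts are least precise.

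Counts were tested in R 4.3.3 with edgeR 4.0.16 (TMM, filterByExpr minimum 10, quasi-likelihood test) with sex, batch and diet as terms, or with batch and the 4 groups to obtain the effect in females, in males and their difference. P values were adjusted over 16553 genes by Benjamini-Hochberg and measure the spread between libraries, which may be in part technical if libraries were pooled. DESeq2 1.42.0, another scaling, other filters and terms, batch 1 alone and leaving out each library were alternatives. A gene passed at an adjusted p under 0.05. The tests were tried on simulated data. Members and lists were chosen with earlier results of these data known. Full statistics were given for Pla2g3, Pla1a, members passing in any fit and the largest difference of each class. From each pathway list at most 3 genes were to be named, and Lypla2 and Htr2a were added to these later. The result of 1 marker gene is not reported here.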

Additional observations from a re-analysis of the deposited data

Results flagged for a closer look

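In each group of 4 libraries, a library was marked when its gap to the nearest other was over Dixon's 95% critical share of the group's range. Over 32 genes and 4 groups (128 sets of 4), 13 were marked. For independent values of 1 population about 1 in 20, or 6.4, would be marked. Here FC, MC and MR each held a single batch 2 library, and the genes share libraries. No conclusion was therefore drawn from that difference. Values are in CPM, and the part of batch in them was not tested beyond the values given. Of the 13, 9 were batch 2 libraries. FC4 was the highest of FC for Pla2g3 (7.03, others 1.47 to 2.26), Plch2 (124, others 52.5 to 62.1) and Plcg1 (115, others 74.2 to 79.9). MC4 was the highest of MC for Pla2g5 (6.60, others 2.44 to 3.06), Plch2 (102, others 56.1 to 63.2) and Pla2g6 (23.8, others 21.7 to 21.8). The library labelled MR4 was the highest of MR for Pla2g4b (1.80, others 0.543 to 0.629) and the lowest for Pld3 (605, others 749 to 774), and FR4 was the lowest of FR for Pld3 (509, others 717 to 731). In batch 1, MC3 was the highest of MC for Plch1 (29.1, others 8.16 to 10.1) and Plcl1 (40.8, others 32.3 to 33.5), FC3 the highest of FC for Plcb1 (323, others 254 to 257) and MR2 the highest of MR for Pla2g4e (15.9, others 4.29 to 6.18).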

How the results depend on the processing

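With RLE size factors, or with the rule of 10 counts in 4 libraries as the filter, the same 6 genes passed in both sexes together. The number passing, with the share of all genes tested in the same fit, was 10 with DESeq2 (adding Pla2g3, Plcb4, Plcg1 and Plcg2, 18.9%), 8 with no filter (8.68%), 4 with batch 1 alone (7.45%), 5 with length offsets (6.11%), 1 with no batch term (Plcb1, 0.858%), and 0, as of all genes, with the length slope or the mitochondrial share as a covariate. Leaving out 1 library at a time it was 4 to 8, while over all tested genes it ran from 719 of 16865 (without FR1) to 3352 of 16727 (without FR4). DEGs were 0 with no batch term (36 of 16553 tested genes), the offsets (212), the slope (0) or the mitochondrial share (0). They were 2 with batch 1 alone (425 of 16644 tested genes). Leaving out 1 library they were 0 to 3, and over all tested genes 156 (without FR1) to 571 (without FR4). In females 2 passed with DESeq2 (9.08%), 3 with no filter (5.55%) and 3 with batch 1 alone (7.75%). Leaving out 1 library, 0 to 4 passed in females, and over all tested genes 1 of 16891 (without FC1) to 2104 of 16727 (without FR4). With no filter 1 passed in males (Plcb4, 1.74%) and 1 between the sexes (Plch1, 0.374%). Between batches 3 passed with the slope (12.6%) and 3 with the mitochondrial share (10.3%). Leaving out 1 library, 9 to 15 passed between batches, and over all tested genes 4265 of 16776 (without FC4) to 6211 of 16861 (without MR4).

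Pla1a no longer passed with no batch term (0.72), batch 1 alone (0.91), the slope (0.23), the offsets (0.66) or the mitochondrial share (0.40), and lay between 0.64 and 0.85 leaving out 1 library. In females it passed with no filter (1.22) and batch 1 alone (1.56), and lay between 1.07 and 1.60 leaving out 1 library. In males it turned to -0.023 with the slope and -0.026 with the mitochondrial share, and lay between -0.00072 (without MR2) and 0.45 leaving out 1 library. Pla2g3 passed with DESeq2 (0.57), no filter (0.57) and batch 1 alone (0.88), and lay between 0.48 and 0.75 leaving out 1 library. The phospholipase A median was 0.24 with offsets and 0.31 with the mitochondrial share (0.14 to 0.24 leaving out 1 library), and the phospholipase D median -0.28 with the slope and -0.19 with the mitochondrial share (-0.011 without MR1 to 0.063 leaving out 1 library). The phospholipase C median lay between -0.13 and -0.065 leaving out 1 library. The cause was not tested.

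Genes that did not pass and changed sign were Pla2g15 (0.063 with the mitochondrial share), Pla2g6 (0.0067 with no batch term, 0.20 with the slope, 0.030 with offsets, 0.30 with the mitochondrial share), Pla2g4a (-0.35 with batch 1, -0.42 with the slope, -0.13 with the mitochondrial share), Pla2g4e (0.24 with batch 1, 0.081 with offsets), Pla2g5 (0.21 with batch 1), Plcd1 (-0.098), Plcl1 (0.079), Plce1 (0.029) and Pld3 (-0.098) with the slope, Plce1 with offsets (0.066), and Pld6 (-0.47 with the slope, -0.56 with the mitochondrial share). Leaving out 1 library, sign changes came within the ranges -0.13 to 0.043 for Pla2g6, -0.13 to 0.18 for Pla2g4a, -0.35 to 0.16 for Pla2g4e, -0.43 to 0.15 for Pla2g5, -0.020 to 0.16 for Plcb3, -0.053 to 0.14 for Plch2, -0.055 to 0.12 for Pld1 and -0.0031 to 0.34 for Pld6.

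Replicate numbers were not taken to pair the libraries over both sexes, since 3 of 21 same-number pairs, all with MC1, had correlations of deviations of 0.1 or less (-0.157 to 0.673). Between FC and FR the 3 pairs ran from 0.432 to 0.673 and between MC and MR the 4 pairs from -0.157 to 0.350, and 12 of 16 libraries correlated best with a library of their own number, a hint from the data and not from the design. With the replicate number as a block, 5 genes passed (Pla2g7 and Pla2g12a higher, Plcb1, Plcb2 and Plcb4 lower), where 7.84% of all genes did. Pla1a (0.67, adjusted p = 0.0961) and Pla2g16 (0.31, adjusted p = 0.0571) were lost and Plcb4 (-0.56, adjusted p = 0.0331) was gained, Pla2g4a (-0.091) and Pld3 (-0.0091) changed sign, and 0 passed in either sex alone. Low counts limit Pld6 (3 to 19 read pairs a library), Pla2g4b (8 to 35), Pla1a (14 to 55) and Pla2g3 (30 to 126).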
